A study of Equus caballus with 8 samples.

Results

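The 10 genes described here are the transcription factor ATF4, its known stress targets ATF3, DDIT3, TRIB3, ASNS, CHAC1, SESN2 and GDF15, and the secreted factors INHBE and FGF21. They were taken by gene symbol from a table of 15266 named genes, and all 10 had a row. INHBE and FGF21 were chosen by their log2 fold change in these same libraries, in which they ranked 3 and 4 among the called genes. Their difference between the groups is therefore described with no p-value. IGFBP5 and RELN ranked above them, and the gene below them was ADAMTS16 with a log2 fold change of 7.12.

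Mesenchymal stem cells from bone marrow (BM-MSCs), stromal cells that adhere to plastic, were grown from the sternal marrow of 4 donor horses, D, J, L and W, in low-glucose medium with 10% serum and basic fibroblast growth factor. For every horse there was 1 untreated library and 1 from cells kept with recombinant human TGF-β2 at 1 ng/ml. There were thus 4 untreated and 4 TGF-β2-treated libraries of poly(A)-selected RNA. The labels place the treatment between isolation of the marrow cells and passage 3 or 4, whereas the study's methods describe it as 3 passages. The medium of both groups held the fibroblast growth factor, and no library came from a shorter exposure, a second culture of the same horse or an agent known to trigger a stress response. The untreated libraries held 40044240 to 57228675 reads assigned to named genes and the treated ones 39184554 to 46634539, and 3 reads, the floor used for bounds, equalled 2.02 to 3.60 normalized counts. Of 7 mesenchymal markers, 6 had a row, with summed levels of 161816 to 355467 normalized counts in untreated and 172849 to 271837 in treated libraries. The sum joins markers that differ in direction, ITGB1 at 70290 to 85751 normalized counts untreated and 116122 to 184270 treated, and THY1 at 24238 to 199815 and 7344 to 37850. Of 6 leukocyte markers, 4 had a row, with sums of 47.9 to 277 and 26.2 to 106 normalized counts. CDH5, the 1 of 4 endothelial markers with a row, lay at 6.09 to 23.8 normalized counts over the 8 libraries.

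ATF4 is a basic leucine zipper factor whose protein is made when the initiation factor eIF2α is phosphorylated and translation in general slows, an event shared by several kinds of cell stress and called the integrated stress response. ATF4 then switches on genes for the synthesis, uptake and tRNA charging of amino acids, together with feedback regulators. INHBE and FGF21 are best known as hormones of the liver, and both are known ATF4-responsive genes there.

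Values are normalized counts, the reads of a gene over the size factor of its library. Fold changes are on the scale of log2(normalized count + 1), which shrinks the measured ratio of genes with few reads. Where an untreated library has 0 reads, the size of the change is set in part by the added 1. Of the 15266 genes, 14907 had 4 or more of the 8 libraries at 10 normalized counts or above and were tested with limma, and a gene was called where the Benjamini-Hochberg adjusted p was under 0.05 and the absolute log2 fold change over 1. By this rule 5.59% of the tested genes were called higher and 5.87% lower after treatment. All 10 genes passed this filter. INHBE and FGF21 reached 10 normalized counts in 5 libraries, 1 of them untreated, and GDF15 in 6, of which 2 were untreated, so these 3 genes passed the filter through the treated libraries, where they are high. The difference of GDF15 is therefore given without a p-value as well.

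INHBE, FGF21 and GDF15 encode secreted proteins. INHBE and FGF21 were nearly silent in 3 of the 4 untreated cultures and were transcribed in every treated one. GDF15, a hormone that acts on the hindbrain and a marker of cell stress, had no read in 2 untreated libraries and at most 64.2 normalized counts in any library, and was higher in each treated library than in any untreated one.

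INHBE, which encodes the βE subunit of activin E, had 0, 0.673, 17.0 and 0 normalized counts in the untreated libraries of horses D, J, L and W. After TGF-β2 treatment it had 387, 193, 1493 and 1049 normalized counts. The lowest treated library lay above the highest untreated one, which was that of horse L. INHBE had no read in untreated D or W, and against the floor of 3 reads per library the treated level was at least 148-fold higher in D and at least 345-fold higher in W. With 1 untreated read, horse J had a ratio of 286 with an exact 95% counting interval of 50.7 to 11367.2. Horse L, with 18 untreated reads, had a ratio of 88.0, the smallest increase on the log2 scale, 6.38. The mean log2 fold change of INHBE was 7.97 (SE 1.03).

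FGF21, a fibroblast growth factor released into the blood, had 0, 0, 11.3 and 1.01 normalized counts without treatment in horses D, J, L and W. The treated libraries held 254, 184, 691 and 505 normalized counts in the same order. Treated and untreated libraries did not overlap, and horse L again stood highest in both groups. The treated level was at least 97.2-fold higher in D and at least 91.2-fold higher in J, 61.1-fold in L, and 497-fold in W, where 1 untreated read gave a counting interval of 88.8 to 19689.7. FGF21 had a log2 fold change of 7.33 (SE 0.84).

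GDF15 had 11.3, 10.8, 0 and 0 normalized counts in untreated cells of D, J, L and W, and 20.2, 64.2, 23.0 and 27.6 after treatment. Here the untreated libraries of L and W were the ones without a read, whereas untreated L was highest for INHBE and FGF21. The treated library of J stood highest. The ratio was 1.79 in D and 5.96 in J, and at least 8.13 in L and 9.08 in W. GDF15 had a log2 fold change of 3.17 (SE 0.96), and 2.57 without the untreated library of L. The treated libraries held only 17 to 60 reads of GDF15, and untreated D and J held 13 and 16. The separation of the groups thus rests on few reads.

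**Figure D1:**
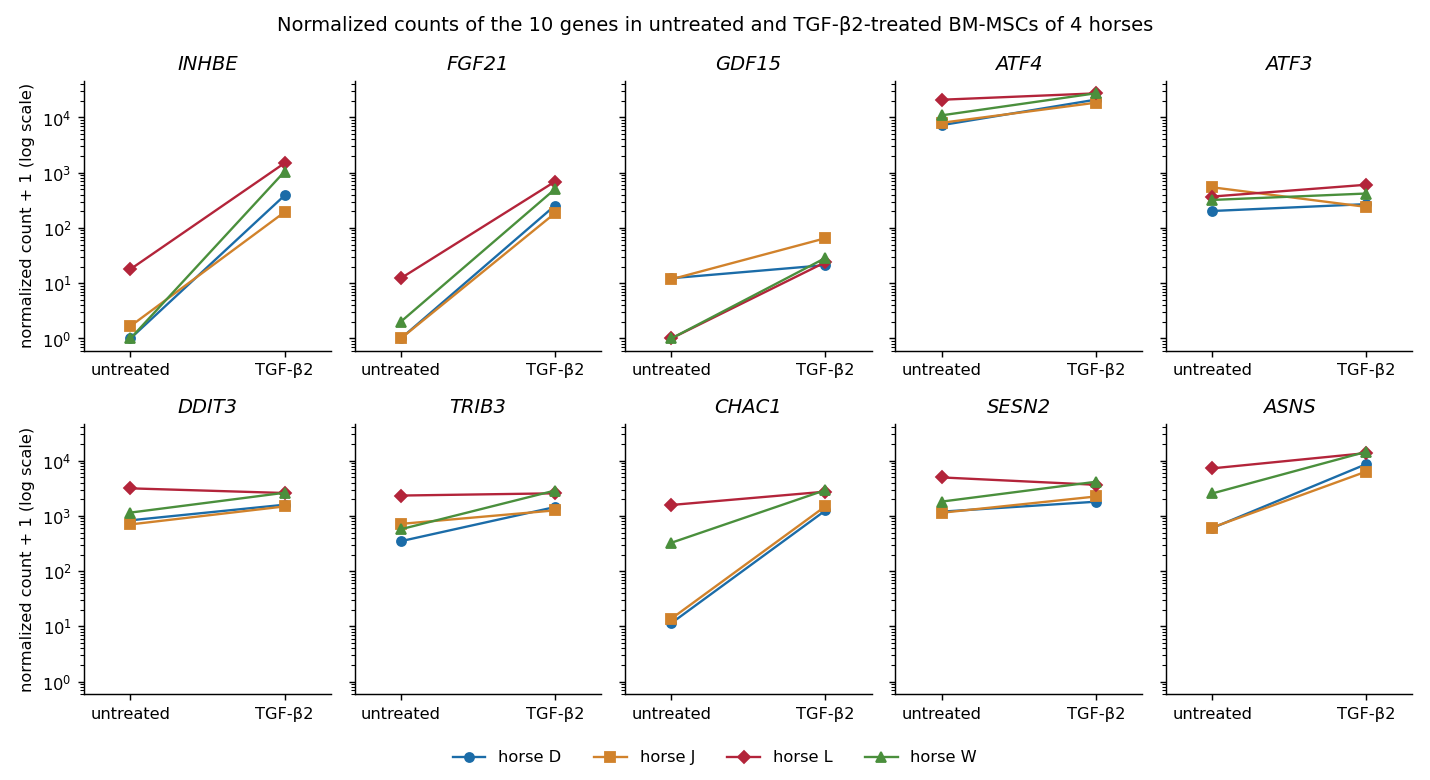
Each panel shows 1 gene, with the normalized count + 1 on a log axis in the untreated and the TGF-β2-treated library of each of the 4 horses, joined by a line per horse. INHBE and FGF21 go from at most 17.0 to at least 184 normalized counts in all 4 horses, while the line of horse L (diamonds) starts highest among the untreated libraries in 8 of the 10 panels.

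The transcription factors differed less between the groups. ATF4 mRNA was higher in the treated library of all 4 horses, DDIT3 was higher in 3 of 4 and not called, and ATF3 differed by less than the spread between horses.

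ATF4 had 7270, 8015, 20964 and 10941 normalized counts in untreated libraries D, J, L and W, against 21035, 18521, 27332 and 27415 in treated ones. The untreated library of L lay above the treated library of J, so that the groups overlapped, and it was the only untreated library to do so. The log2 change was 1.53 in D, 1.21 in J, 0.38 in L and 1.33 in W. On average ATF4 rose by 1.11 on the log2 scale with a standard error of 0.32 (limma, adjusted p = 0.0405). When libraries were instead brought to equal totals, the median of all tested genes moved to -0.30, ATF4 had a log2 fold change of 0.80 and it was no longer called (adjusted p = 0.0613).

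DDIT3, which encodes the factor CHOP, a partner of ATF4 that is linked to cell death, had 832, 701, 3156 and 1149 normalized counts without and 1595, 1485, 2599 and 2623 with treatment. The level in untreated L was the highest of all 8 libraries, and L was the only horse in which DDIT3 was lower after treatment, by a log2 change of -0.28. The mean log2 fold change was 0.73 (SE 0.46; limma, adjusted p = 0.285, and 0.0842 with the block). Without the untreated library of L it was 1.20 with an adjusted p of 0.0216 from limma.

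ATF3, a stress-induced repressor of the same family, had 202, 544, 369 and 321 normalized counts in untreated and 269, 240, 605 and 419 in treated cells of D, J, L and W. The log2 change ran from -1.18 in J to 0.71 in L. The groups overlapped along most of their range, and the mean log2 fold change of 0.08 (SE 0.38) was not past the threshold (limma, adjusted p = 0.901). Its sign turned with the total scaling, to -0.23.

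The remaining genes act further downstream. ASNS and CHAC1 differed most between treated and untreated cells, above all in horses D and J, where the untreated levels were lowest. TRIB3 was higher in all 4 horses by a smaller amount, and SESN2 in 3 of 4.

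ASNS, the enzyme that makes asparagine and a standard readout of amino acid shortage, had 601, 615, 7257 and 2548 normalized counts in untreated libraries D, J, L and W. With TGF-β2 it had 8662, 6359, 13721 and 14505. Only untreated L reached the treated range, where it stood above treated J. The ratio of treated to untreated was 14.4 in D and 10.3 in J against 1.89 in L and 5.69 in W. ASNS rose by 2.66 on the log2 scale with a standard error of 0.78 (limma, adjusted p = 0.0406, and 0.0132 with the block).

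CHAC1, an enzyme that breaks down glutathione, had 10.4 and 12.8 normalized counts in the untreated libraries of D and J, 326 in W and 1577 in L. In treated libraries the 4 levels were close together, at 1253 in D, 1495 in J, 2750 in L and 2933 in W. Thus the untreated levels ranged over 2 orders of magnitude and untreated L lay above treated D and J. The treated level was 120 times the untreated one in D, 117 times in J, 9.0 times in W and 1.74 times in L. The log2 fold change of 4.38 had a standard error of 1.5 and was not past the threshold without a term for the horse (limma, adjusted p = 0.0691), but was with the block (0.0315) and without untreated L (0.0127).

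TRIB3, a pseudokinase that restrains ATF4 and DDIT3, had 348, 716, 2337 and 573 normalized counts without and 1447, 1259, 2566 and 2881 with treatment. Untreated L was again within the treated range, and the log2 change was 0.13 in L against 2.33 in W. Its mean log2 fold change was 1.33 (SE 0.56; limma, adjusted p = 0.122, and 0.0494 with the block).

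SESN2, a sestrin that lowers mTORC1 activity when leucine is scarce, had 1194, 1141, 4976 and 1817 normalized counts in untreated and 1807, 2247, 3663 and 4152 in treated libraries. Untreated L was the highest of the 8, and in L the log2 change was -0.44. The log2 fold change of 0.58 (SE 0.49) was not past the threshold (limma, adjusted p = 0.432, and 0.161 with the block).

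Of the 8 genes other than INHBE and FGF21, 3 were called higher (GDF15, ATF4 and ASNS) and 0 lower by limma, while 5.59% of all tested genes were called higher. GDF15 was admitted by the treated libraries, so its call is not read against that share, which leaves ATF4 and ASNS, 2 of the other 7. At an unadjusted p under 0.05, 5 were higher, GDF15 among them, and 0 lower. In the fit with the horse as a block, a pairing that comes from the horse letter in the labels, TRIB3 and CHAC1 were called as well, making 5. With GDF15 again set aside, this leaves ATF4, ASNS, TRIB3 and CHAC1 of the other 7. Of all tested genes, 6.83% were called higher and 7.31% lower in that fit. Of these 8, treated and untreated libraries did not overlap for GDF15 alone, the gene admitted by the treated libraries. All treated libraries lay above all untreated ones in 13.9% of tested genes, so even with GDF15 1 of 8 is near the background. The level was higher after treatment in all 4 horses for 5 of the 8, GDF15 among them, and for 3917 of the 14907 tested genes. The list was assembled from what is known of ATF4 with results of these libraries already in view, so its counts are a description of it.

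Leaving out the untreated library of horse L, a choice made after the values were seen, also gave 5 called genes, ATF4, DDIT3, TRIB3, CHAC1 and ASNS, where 6.1% of tested genes were called higher. GDF15, in which untreated L held no read, was then not called. ATF4 and ASNS were each no longer called when D, J or W was left out. Without horse D the adjusted p from limma was 0.169 for ATF4 and 0.172 for ASNS. Without J these values were 0.0764 and 0.0770, and without W 0.181 and 0.146.

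**Figure D2:**
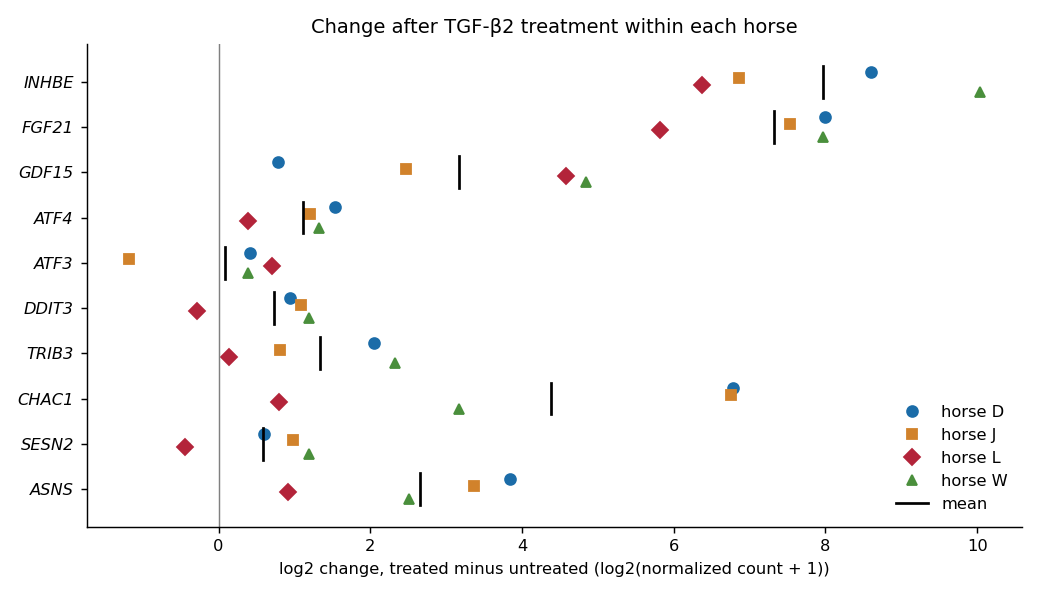
The log2 change from the untreated to the treated library (x axis, log2(normalized count + 1)) is shown for each of the 10 genes (y axis) as 1 symbol per horse, with a black bar at the mean. The symbol of horse L is the leftmost for 8 of the 10 genes, below 0 for DDIT3 and SESN2, and CHAC1 spreads from 0.80 in L to 6.78 in D.

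Horse L was the donor in which most of these genes were already high before treatment. Its untreated library was the highest of the 4 for 8 of the 10 genes, all except GDF15 and ATF3, compared with 24.0% of all tested genes. It lay above the mean of the other untreated libraries by a median of 2.02 on the log2 scale over the 10 genes, with 5.41 for CHAC1 and 3.92 for INHBE, while the median over all tested genes was 0.01. The increase after treatment was smallest in L for the same 8 genes, against 24.4% of all tested genes. These measures share the untreated library of L and are not independent of each other.

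The treated libraries differed from each other less. Horse L lay above the mean of the other treated libraries by a median of 0.56 on the log2 scale over the 10 genes. The treated libraries of L and W both lay above those of D and J for 9 of the 10 genes, all but GDF15, compared with 26.4% of all tested genes. This split of the horses was chosen after the values were seen, and the 10 genes share the same libraries. The standard deviation of the log2 levels over the 4 horses was smaller in treated than in untreated cells for 9 of 10 genes, ATF3 being the other, with medians of 1.44 untreated and 0.60 treated. It was also smaller in treated cells for 65.9% of all tested genes, with medians of 0.33 and 0.23. For CHAC1 it was 3.5 untreated and 0.62 treated.

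The summed leukocyte markers of untreated L, 229 normalized counts, lay between those of J at 277 and W at 127, and the read total of L, 44539763, was close to the untreated median of 44390354.5. The part of either in the high level of these genes in L was not tested. Of 6 hepatocyte markers, only ALB and APOA1 had a row. ALB had 91.6 to 254 normalized counts in untreated and 64.2 to 136 in treated libraries, and APOA1 had 3222 to 30688 and 387 to 1006. Their part in the levels of INHBE and FGF21 was not tested. In bulk RNA, a change in the share of cells that express a gene and a change in RNA per cell cannot be told apart.

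Amino acid supply is the best known output of ATF4. Of 30 genes in lists of amino acid and one-carbon synthesis enzymes, amino acid transporters and aminoacyl-tRNA synthetases, all were tested, 15 were called higher and 0 lower by limma. Of all tested genes, 5.59% were called higher and 5.87% lower. The transporter SLC38A2 was lower with an adjusted p under the threshold but a log2 fold change short of 1. With the block 18 were called higher, and without untreated L 25, against 6.83% and 6.1% of all tested genes. These counts include SLC7A3, which passed the filter through the treated libraries. The median log2 fold change was 1.21, compared with 0.01 over all tested genes.

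Among the synthesis enzymes, 7 of 9 were called higher and 0 lower. ALDH1L2, a mitochondrial folate enzyme, had 1038, 1103, 12861 and 3807 normalized counts in untreated D, J, L and W and 15420, 15361, 22875 and 24175 after treatment, an increase of 2.80 on the log2 scale (SE 0.75, limma adjusted p = 0.0299). MTHFD2, another enzyme of mitochondrial folate, rose by 2.20 (SE 0.62, limma adjusted p = 0.0349), and PYCR1, which makes proline, by 1.95 (SE 0.49, limma adjusted p = 0.0245). The serine enzyme PSAT1 was called with the block, which made 8. It had 152 and 119 normalized counts in untreated D and J against 8446 in L.

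Among the transporters, 6 of 9 were called higher and 0 lower. The neutral amino acid carrier SLC38A2 had 29338, 27435, 28738 and 34292 normalized counts in untreated and 14179, 16158, 17603 and 18176 in treated cells of D, J, L and W. It was lower in all 4 horses, the groups did not overlap, and its log2 fold change was -0.86 (SE 0.12, limma adjusted p = 0.00275). With the total scaling this was -1.17, and SLC38A2 was called lower. SLC7A3, a carrier of basic amino acids, had 0, 2.02, 63.1 and 1.01 normalized counts in untreated and 135, 93.1, 331 and 388 in treated cells of D, J, L and W. Like INHBE and FGF21, it was close to absent in untreated D, J and W. Its log2 fold change was 5.50 (SE 1.21). It is 1 of the 6 called, but it passed the filter through the treated libraries, so no p-value is given for it. SLC7A5, the large neutral amino acid carrier, rose by 3.23 (SE 0.72, limma adjusted p = 0.0160) and its partner chain SLC3A2 by 1.5 (SE 0.38, limma adjusted p = 0.0239). The cystine carrier SLC7A11 rose by 2.18, the glutamine carrier SLC1A5 by 2.13 and the arginine carrier SLC7A1 by 1.96, with adjusted p from limma of 0.0386, 0.0104 and 0.0145.

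Of 12 aminoacyl-tRNA synthetases, 2 were called higher and 0 lower, while 11 had an unadjusted p under 0.05 and were higher. MARS rose by 1.18 (limma, adjusted p = 0.0306) and GARS by 1.04 (limma, adjusted p = 0.0389). The median log2 fold change of 0.87 was under the threshold of 1, and 9 of the 12 were called without untreated L. With the total scaling 0 were called by limma, and 5 were higher at an unadjusted p under 0.05. Untreated L was the highest untreated library for 11 of the 12, against 24.0% of all tested genes.

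Untreated L was the highest of the untreated libraries for 27 of the 30 amino acid supply genes, against 24.0% of all tested genes. The increase was smallest in L for 26 of the 30, against 24.4% of all tested genes. Both counts share the untreated library of L and are not independent of each other. The median excess of untreated L over the mean of the other horses was 1.24 on the log2 scale over the 30 genes, and that of treated L was 0.24. These calls also rested on the other horses. Without horse D, limma called 1 synthesis enzyme, 0 transporters and 0 tRNA synthetases higher, without W the same counts, and without J 2, 3 and 0.

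Other ATF4 and DDIT3 targets moved in both directions. Of 20 tested, 4 were called higher and 1 lower by limma, 8 and 1 with the block, and 2 and 3 with the total scaling. Of all tested genes, 5.59% were called higher and 5.87% lower by limma, and 6.83% and 7.31% with the block. STC2, the secreted glycoprotein stanniocalcin-2, rose by 3.83 (SE 0.60, limma adjusted p = 0.00412), from 749, 1159, 3296 and 1469 to 17797, 7587, 30615 and 41762 normalized counts. ADM2, a peptide hormone, rose by 2.06 (limma, adjusted p = 0.0483), PCK2, the mitochondrial enzyme that makes phosphoenolpyruvate, by 1.34 (limma, adjusted p = 0.0362) and CTH, which makes cysteine, by 1.15 (limma, adjusted p = 0.0199). FAM129A, the stress protein also called NIBAN1, fell by 1.69 on the log2 scale (limma, adjusted p = 0.0357). ADM2 and FAM129A were not called without untreated L, and 1 of the 20, STC2, was called higher without horse D or W. With the block, VLDLR, GPT2, BCAT1 and ATF5 were called higher as well.

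Upstream, 1 of 7 eIF2α kinase and phosphatase genes was called higher and 0 lower, where 5.59% and 5.87% of all tested genes were. PPP1R15B, the constitutive subunit that guides the phosphatase to eIF2α, rose by 1.36 (SE 0.17, limma adjusted p = 0.00172), from 478 to 756 normalized counts in untreated to 1419 to 1689 in treated libraries. PPP1R15A was higher in all 4 horses with no overlap of the groups, by 0.75 on the log2 scale (limma, adjusted p = 0.0168), short of the threshold. The log2 fold change of EIF2AK2, which encodes the kinase PKR, was -1.25, and it was called lower with the block (limma, adjusted p = 0.0307). Its untreated level in J, 3050 normalized counts, was over 3 times that of any other library. Of 9 basic leucine zipper partners, 1 was called higher and 0 lower by limma, and 3 were higher and 2 lower at an unadjusted p under 0.05. CREB3L1, a membrane-bound factor linked to collagen secretion, rose by 1.86 (SE 0.47, limma adjusted p = 0.0252). CREB3L2 was higher in all 4 horses with no overlap of the groups, by 0.77 (limma, adjusted p = 0.0374), short of the threshold. PPP1R15B was called with any 1 horse left out, and CREB3L1 was not called without D, J or W. CEBPB and NFE2L2 were lower in all 4 horses with no overlap of the groups, with log2 fold changes of -0.91 and -0.71 (limma, adjusted p = 0.00664 and 9.60e-04). With the total scaling these were -1.22 and -1.02, and both were called lower.

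The chaperone arm of the unfolded protein response, driven by ATF6 and XBP1, was measured beside the ATF4 genes. Of 18 genes, 4 were called higher and 0 lower, and 12 were higher at an unadjusted p under 0.05. HYOU1 rose by 1.20, MANF by 1.15, CRELD2 by 1.12 and PDIA4 by 1.02, all factors that fold or protect proteins in the endoplasmic reticulum, with adjusted p from limma of 0.00495, 0.00158, 0.00454 and 0.00471. All treated libraries lay above all untreated ones for 11 of the 18, and for 13.9% of all tested genes, of which 5.59% were called higher. Untreated L was the highest untreated library for 8 of the 18, against 24.0% of all tested genes. Its median excess was 0.19 on the log2 scale. With the total scaling 0 of the 18 were called higher by limma, with 9 higher at an unadjusted p under 0.05, and without horse D 2 were called.

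Lists for other kinds of stress held no call by limma, where 5.59% of all tested genes were called higher and 5.87% lower. Of 9 mitochondrial chaperones and proteases, 1 was higher and 2 lower at an unadjusted p under 0.05, and CLPX had the largest change, -0.60 on the log2 scale. The p53 targets had a median log2 fold change of -0.60, with 0 of 12 higher and 6 lower at an unadjusted p under 0.05. DESeq2 called 1 of them lower and edgeR 0, and limma called 3 lower without horse J or with the total scaling. Among the p53 targets the change of FAS, a death receptor, was largest at -1.17 (limma, adjusted p = 0.228). CDKN1A and SESN1 were lower in all 4 horses with no overlap of the groups. Their log2 fold changes of -0.98 and -0.91 fell short of the threshold (limma, adjusted p = 0.0284 and 0.0293). CDKN1A was called lower without untreated L. Of 8 NRF2 targets, 0 were higher and 2 lower at an unadjusted p under 0.05. DESeq2 and edgeR each called 1 lower, as limma did without horse J. With the total scaling limma called 2 lower, and 5 were lower at an unadjusted p under 0.05. With the block limma called 0, and 1 was higher and 5 lower at an unadjusted p under 0.05. GCLC, an enzyme of glutathione synthesis, had a log2 fold change of -0.92 (limma, adjusted p = 0.0566).

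**Figure D3:**
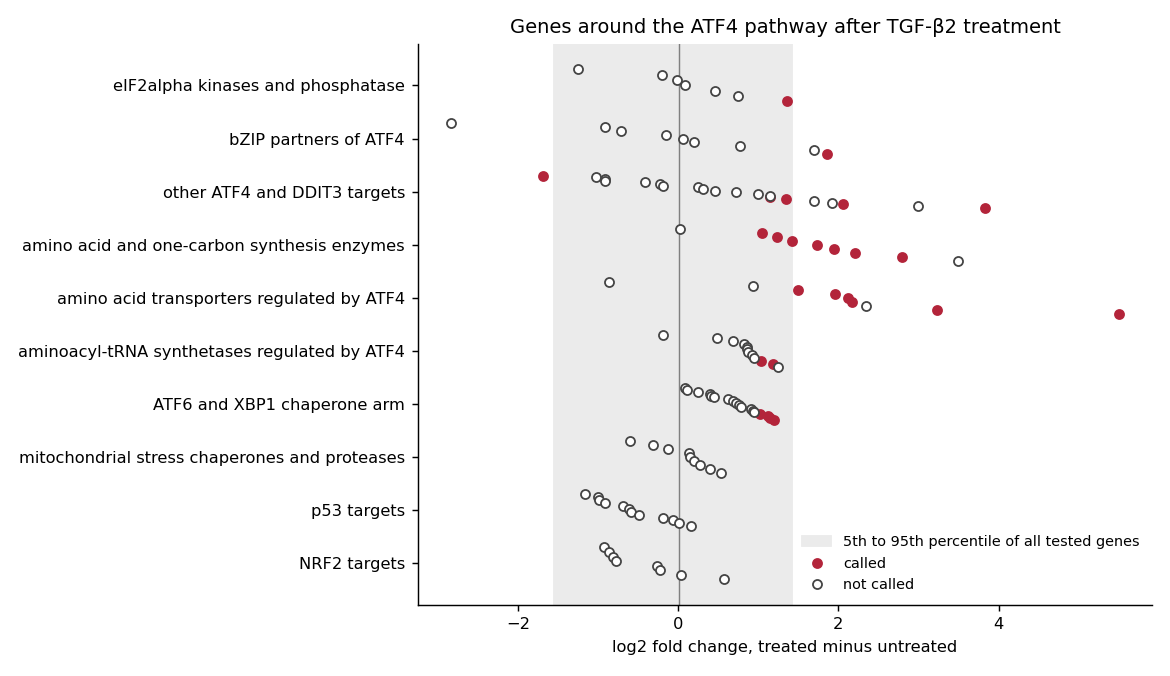
Each point is 1 tested gene of the list named on the y axis, at its log2 fold change between treated and untreated libraries (x axis), filled where it was called by limma. The grey band holds the 5th to 95th percentile of all tested genes, from -1.55 to 1.43, and most synthesis enzymes and transporters lie to its right while the p53 and NRF2 targets lie within it.

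**Figure D4:**
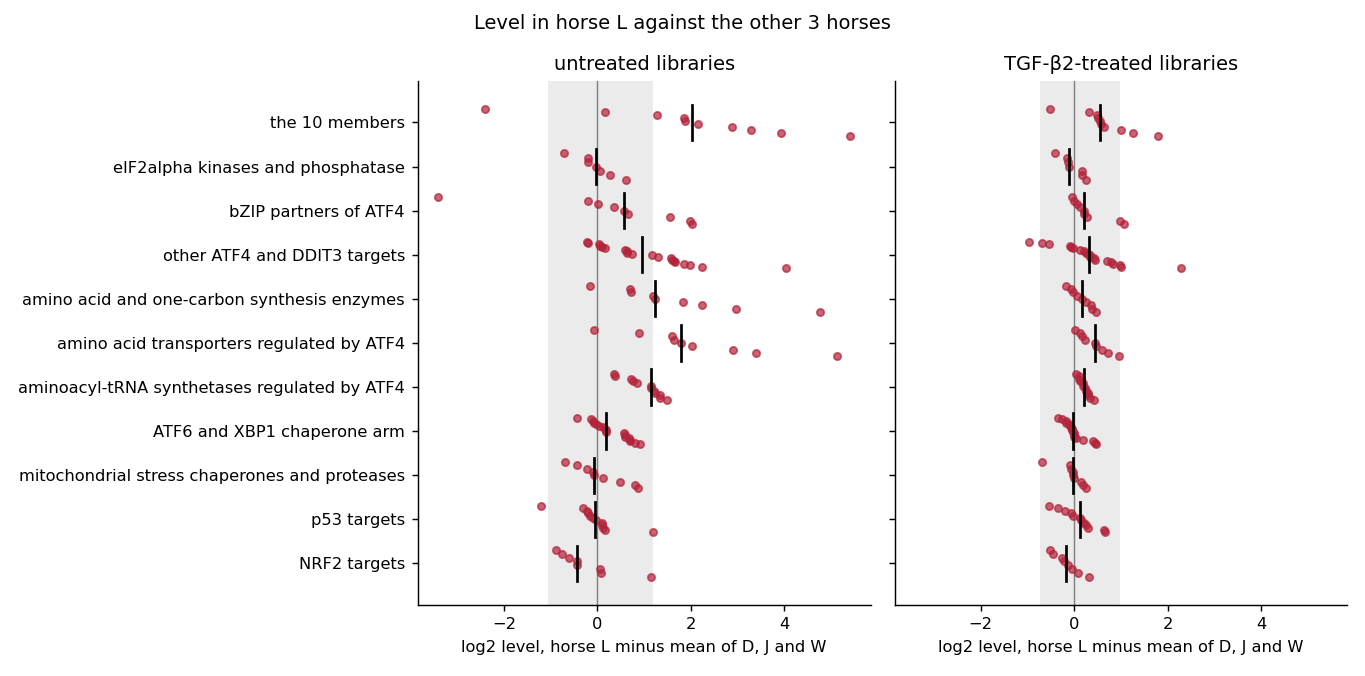
For the 10 genes and for each list (y axis), points give the log2 level in horse L minus the mean of D, J and W (x axis) in untreated (left) and treated (right) libraries, with a black bar at the median and a grey band from the 5th to the 95th percentile of all tested genes. The median of the 10 genes is 2.02 in untreated and 0.56 in treated libraries, and the medians of the p53 and NRF2 targets are -0.06 and -0.43 in untreated libraries.

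The receptors that the secreted products act on were measured in the same cells. Of 11 receptor genes, 8 had a row, and 0 were called higher and 1 lower by limma, with 0 higher and 1 lower at an unadjusted p under 0.05. Limma called 5.59% of all tested genes higher and 5.87% lower. FGFR3 fell by 3.08 on the log2 scale (SE 0.65, limma adjusted p = 0.0131), from 885, 341, 3003 and 2849 to 124, 184, 166 and 130 normalized counts. It was not called without horse D, L or W. KLB, the co-receptor of FGF21, and GFRAL, the receptor of GDF15, were among the 3 without a row. Of 6 related growth factors with a row, 2 were called higher and 0 lower, and 5 were higher at an unadjusted p under 0.05. The 5 include FGF19, which passed the filter through the treated libraries, so its difference is not read as a test. FGF19 had 2.61, 4.04, 79.2 and 8.12 normalized counts in untreated D, J, L and W and 27.8 to 212 in treated libraries. INHBA, the βA subunit of activin A, rose by 3.86 (SE 0.30, limma adjusted p = 3.23e-04) and was abundant without treatment, at 2378 to 5417 normalized counts against 38782 to 76170 with it. GDF6, a bone morphogenetic protein, rose by 5.26 (SE 0.51, limma adjusted p = 8.14e-04). For INHBA and GDF6 untreated L was not the highest library.

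The genes with the most similar profile were found from the root mean square difference of log2 levels, each gene centred on its mean, over the 8 libraries. INHBE and FGF21 were each other's nearest gene among all tested, at 0.65, and the next 2 for both were FUT1, a fucosyltransferase, and EPHA8, an ephrin receptor, in this order for INHBE and in the reverse order for FGF21. FUT1 had 24.5 normalized counts in untreated L, 0 in the other untreated libraries and 103 to 272 in treated ones, and EPHA8 had 4.71 in untreated L, 0 in the others and 82.2 to 222 after treatment. FUT1 neighbours FGF21 in RefSeq's annotation of the horse assembly TB-T2T. ATF4 was nearest to the tRNA synthetase GARS at 0.092, DDIT3 and SESN2 to each other at 0.159, ASNS to ALDH1L2 at 0.186 and CHAC1 to PSAT1 at 0.642. TRIB3 was nearest to LOC111769974 at 0.202, a long non-coding RNA that overlaps it in TB-T2T, and then to EIF4EBP1, a repressor of translation. ATF3 was nearest to LOC102148834 at 0.160. The profiles share the libraries and the difference between groups, so these distances are a description.

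INHBE and DDIT3 lie in 1 stretch of 13 annotated genes in TB-T2T, of which 10 had a row here. Of the genes around INHBE, those called higher were MARS and SHMT2, the mitochondrial serine hydroxymethyltransferase, with a log2 fold change of 1.42. Of all tested genes, 5.59% were called higher. The stretch was taken from SHMT2 to MBD6, so SHMT2 is a chosen end, and both called genes are in the amino acid supply lists. NDUFA4L2 was not called, with a log2 fold change of 1.28 (limma, adjusted p = 0.0550), and INHBC, next to INHBE, had no row. The genes between INHBE and DDIT3 were GLI1 with a log2 fold change of 0.38 (limma, adjusted p = 0.679), ARHGAP9 with -0.19 (limma, adjusted p = 0.757) and MARS. DDIT3 overlaps MARS1 and 1 further gene in that annotation, and the strand setting of the counting is not given in the sources used here, so reads of DDIT3 and MARS, like those of TRIB3 and its overlapping RNA, may not be fully separated.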

How the data were processed

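Poly(A) RNA of BM-MSCs from 4 horses, with and without TGF-β2, was sequenced with paired ends. According to the methods and the submitters' processing notes, the authors trimmed reads with Trimmomatic 0.36, mapped them to EquCab 3.0 with STAR 2.5.2b, counted unique hits per gene with featureCounts of Subread 1.5.2 and used DESeq2. The authors deposited a signal, the gene counts divided by a size factor per library. Whether counting used strand and how genes were kept is not given in the sources used here. Of 15267 rows, 1 without a name, with 0.0281% to 0.0531% of the reads, was left out.

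Every value was a whole multiple of what 1 read is worth in its library (100% within a tolerance of 0.01), so reads were recovered for depth, for the floor of 3 reads and for count tests. Floors and intervals cover counting error only. The main test was limma 3.58.1 (lmFit, eBayes with trend) run in R 4.3.3, with log2(normalized count + 1) as the response and no horse term, as the methods name none. The 2 libraries that share a letter come from the same horse, and their deviations from the group means correlated by 0.386 to 0.609, against -0.40 to 0.116 between horses. Alternatives were pseudocounts of 0.5 and 5, no filter and a filter at 50, total and TMM scaling, no trend, the replicate block, DESeq2 1.42.0 and edgeR 4.0.16 on recovered reads, each horse left out, an adjusted p under 0.01 and no fold change threshold. The steps were tested on simulated data. Nothing shows separate cultures within a horse. P-values without the block therefore set the difference against the spread between these horses. Those with the block set it against the spread of the change between them.

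The members, gene lists and tests were chosen with earlier results of these data known. Named are all members, every called gene of a list (with over 6, the 3 largest changes in each direction), the gene of largest change in lists without a call, and the 3 nearest profiles of each member, of which some are given. One item covered by this rule is not reported here. Genes called by an alternative, PSAT1, SLC38A2, CEBPB, NFE2L2, EIF2AK2, PPP1R15A, CREB3L2, CDKN1A, SESN1 and the neighbours of INHBE were chosen after their values were seen. The comparisons of horse L with the others, and of L and W with D and J, were also chosen then. Names for lists were matched by symbol or older symbol. Coordinates and sequences are not used here, since the annotation at hand is of TB-T2T and not of EquCab 3.0.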

Additional observations from a re-analysis of the deposited data

Results flagged for a closer look

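In 8 of 76 groups of 4 libraries, over 38 genes, 1 library stood far from the others by Dixon's test at the 95% level. The usual rate of about 1 in 20 groups is not a measure for this count. The genes share the same libraries and were chosen with results known, some of them by their increase. Of the 8 groups, 5 concerned the untreated library of horse L. INHBE had 17.0 normalized counts there, with 0 to 0.673 in the other untreated libraries, and FGF21 had 11.3, with 0 to 1.01 in the others. PCK2 had 6047 normalized counts in untreated L, with 1790 to 2118 in the others, SLC3A2 had 5765, with 1485 to 2189, and SLC7A3 had 63.1, with 0 to 2.02.

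The other 3 concerned treated libraries. GDF15 had 64.2 normalized counts in treated J, with 20.2 to 27.6 in the other treated libraries. FAS had 686 in treated W, with 89.3 to 166 in the others, and GDF6 had 5839 in treated L, with 2501 to 2662 in the others.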

How the results depend on the processing

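INHBE and FGF21 kept their direction in all 18 alternatives, with log2 fold changes of 6.31 to 9.16 and 5.69 to 8.15. Of the 8 other members, 3 were called higher by limma, GDF15 among them. GDF15 passed the filter through the treated libraries, so its call is set aside, which leaves ATF4 and ASNS. The replicate block, which pairs the libraries of a horse, DESeq2 with that block, leaving out untreated L, and the block without horse L each gave 5, whereas edgeR with the block gave 2. GDF15 was counted in the 5 of the replicate block and of DESeq2 with that block. Total scaling and DESeq2 without the block each gave 1, ASNS. No trend, edgeR and an adjusted p under 0.01 gave 0, where 4 (no trend) and 3 (edgeR) were higher at an unadjusted p under 0.05, and 5 in the limma test itself. Leaving out 1 horse gave 0 (without D, J or W, each with 3 at an unadjusted p under 0.05) to 4 (without L), or 5 without only the untreated library of L. ATF3 changed sign in 5 of 18 alternatives: total scaling (-0.23) and without horse L (-0.13, also with the block), D (-0.028) or W (-0.018). It ran from -0.13 to 0.50 over the horses left out. ATF4 was not called in 7 of 18 alternatives and ASNS in 5 of 18, and GDF15, set aside above, in 12 of 17.

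Over all genes 1709 were called, 885 at an adjusted p under 0.01, 3403 with no fold change threshold, 2051 by DESeq2, 1680 by edgeR and 718 (without D) to 1937 (without J) with a horse left out. GDF15 passed the filter through the treated libraries and rests on 17 to 60 reads per treated library, which limits its precision.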
